A study of Homo sapiens with 6 samples.

Results

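The genes described here are the class I genes of the human leukocyte antigen (HLA) region with their shared light chain and their transactivator: HLA-B, HLA-C, HLA-E, HLA-F, HLA-G, B2M and NLRC5. They were taken by gene symbol, with earlier results of these data known, and make up 7 of the 28278 genes listed for every library. The libraries came from HT29, an established human colorectal adenocarcinoma line with epithelial morphology. Cells received either an siRNA against ALDOA, the glycolytic enzyme aldolase A (siALDOA), or a scrambled control siRNA (siControl), and total RNA was taken 48 h later. Each group held 3 libraries that the labels call biological replicates, so 6 libraries in all, from 1 cell line and with 1 siRNA treatment named for the target. The comparison asked how the RNA levels of these genes differed between siALDOA and siControl.

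Summed over genes, siALDOA replicates 1 to 3 reached 28166497, 28690395 and 27277538 counts. For siControl these sums were 33237914, 31973122 and 31899091. Ribosomal RNA genes made up 13.1%, 7.71% and 8.11% of them under siALDOA, against 17.4%, 15.3% and 8.15% under siControl. A fit without these genes kept the calls of the members, and any other part of these shares in the results was not tested. Levels are given as CPM, counts scaled to a common library size, after TMM scaling, a normalization that equalizes most genes between libraries. Differences were tested with edgeR's quasi-likelihood test over the 15307 genes that passed its filter on low counts, with Benjamini-Hochberg adjustment and a threshold of 0.05 on the adjusted p. In RNA from whole cultures, fewer cells with a transcript and less of it in each cell cannot be told apart.

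Class I molecules carry peptides from the inside of a cell to its surface, where T cells and natural killer cells inspect them. A heavy chain, encoded by an HLA gene, pairs with beta-2-microglobulin, encoded by B2M, and is loaded with peptide in the endoplasmic reticulum. NLRC5 is a nuclear protein of the NLR family that works at class I promoters, together with factors that bind their conserved boxes, and both it and the class I genes are known to respond to interferons.

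The target of the siRNA was low in every siALDOA library. ALDOA stood at 283, 305 and 279.7 CPM with siALDOA and at 592, 637 and 668 CPM with siControl. Its log2 fold change was -1.13 (standard error 0.060, adjusted p = 6.95e-11 by edgeR's quasi-likelihood test with Benjamini-Hochberg adjustment), so the labels matched the level of the target in 6 of 6 libraries.

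Of the 7 members, 6 passed the filter on low counts, and all of those 6 were higher with siALDOA at an adjusted p under 0.05, against 4.36% of all tested genes called higher, 5.29% called lower and 9.66% called in either direction. In all 6, every siALDOA library lay above every siControl library, which was the case for 13.1% of the tested genes. These counts are descriptive, since the members were chosen with earlier results of these data known. The rises ranged from 0.41 for HLA-C to 1.33 for NLRC5 on the log2 scale. Scaling by library totals alone moved the balance of calls over all genes, from 668 higher and 810 lower (45.2% higher) to 895 higher and 279 lower (76.2% higher), and the median log2 fold change of all genes from 0.0016 to 0.075; the 6 members were called higher under both. HLA-G was the member outside the test, since it was listed at 0 in all 6 libraries.

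**Figure D1:**
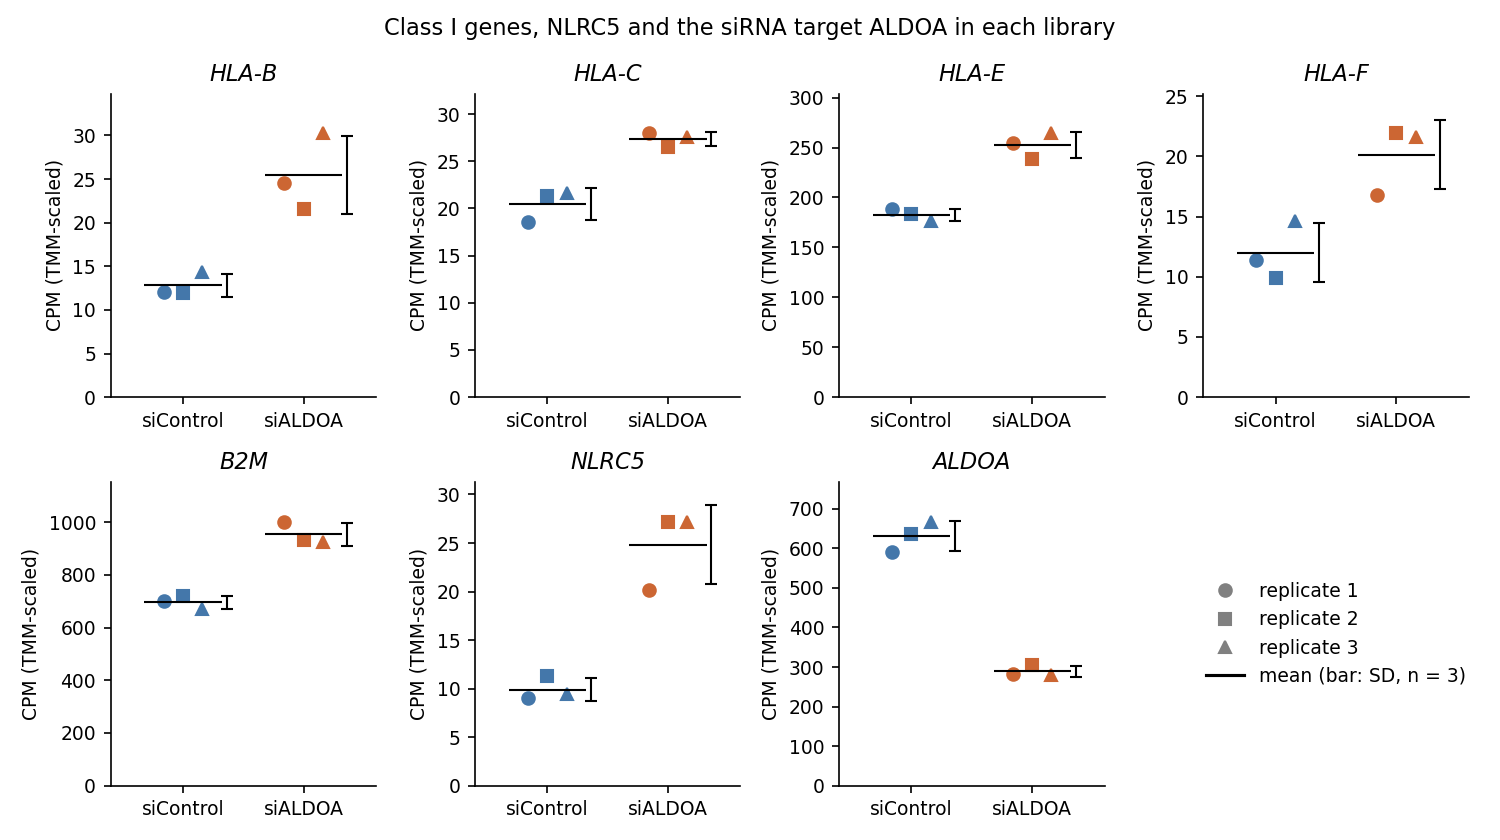
TMM-scaled CPM of the 6 tested members and of ALDOA in each library, with circles, squares and triangles for replicates 1, 2 and 3, a line at the group mean and a bar for the SD (n = 3). In each member the siALDOA points lie above the siControl points, while ALDOA at 279.7 to 305 CPM lies below its control range of 592 to 668 CPM.

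The heavy chain genes lie on the short arm of chromosome 6. In GENCODE release 44, on hg38, the classical genes are HLA-B (ENSG00000234745, chr6:31353872-31367067, minus strand) and HLA-C (ENSG00000204525, chr6:31268749-31272130, minus strand). The non-classical genes are HLA-E (ENSG00000204592, chr6:30489509-30494194, plus strand), HLA-F (ENSG00000204642, chr6:29722775-29738528, plus strand) and HLA-G (ENSG00000204632, chr6:29826967-29831125, plus strand). B2M (ENSG00000166710, chr15:44711358-44718851, plus strand) and NLRC5 (ENSG00000140853, chr16:56989485-57083531, plus strand) lie on other chromosomes, so the 6 tested members came from 3 chromosomes.

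The stretches before the starts of the members are shown next, as RefSeq gives them on GRCh38.p14. Windows were found for 5 of the 7 members, all but HLA-E and NLRC5, and HLA-G had 3 windows, of which the one at the start of its canonical transcript is shown. Each line runs from 200 to 41 bases before the start that RefSeq annotates, 5′ to 3′ on the strand of the gene. These starts are not those of the GENCODE spans above. The stretches of HLA-B, HLA-F and HLA-G lie within those spans, that of B2M lies partly within, and that of HLA-C outside. The positions are chr6:31357220-31357379 (minus) for HLA-B, chr6:31272133-31272292 (minus) for HLA-C, chr6:29723234-29723393 (plus) for HLA-F, chr6:29827625-29827784 (plus) for HLA-G and chr15:44711317-44711476 (plus) for B2M. Capitals mark letters that match one of the motifs searched, on either strand.
HLA-B: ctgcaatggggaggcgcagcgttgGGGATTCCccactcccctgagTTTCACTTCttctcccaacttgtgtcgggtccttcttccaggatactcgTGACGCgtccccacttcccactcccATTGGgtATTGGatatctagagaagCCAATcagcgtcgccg
HLA-C: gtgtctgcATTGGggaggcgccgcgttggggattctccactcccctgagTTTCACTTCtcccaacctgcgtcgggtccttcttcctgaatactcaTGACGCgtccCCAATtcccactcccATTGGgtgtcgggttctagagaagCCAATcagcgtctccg
HLA-F: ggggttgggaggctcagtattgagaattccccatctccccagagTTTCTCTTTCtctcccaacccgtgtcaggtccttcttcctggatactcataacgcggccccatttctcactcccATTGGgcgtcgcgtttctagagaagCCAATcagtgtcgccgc
HLA-G: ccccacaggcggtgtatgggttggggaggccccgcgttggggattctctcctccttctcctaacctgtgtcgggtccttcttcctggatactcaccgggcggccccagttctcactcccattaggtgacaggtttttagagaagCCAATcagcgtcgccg
B2M: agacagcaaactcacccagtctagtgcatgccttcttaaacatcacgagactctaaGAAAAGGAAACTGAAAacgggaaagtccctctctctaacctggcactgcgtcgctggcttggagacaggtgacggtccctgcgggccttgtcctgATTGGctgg

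The motifs searched were a core of the interferon-stimulated response element (GAANNGAAA), the gamma-activated site (TTCNNNGAA), the core of the class I enhancer A (GGGATTCC), the Y box (CCAAT) and the X2 box, also called site alpha (TGACGC). A separate, longer pattern (GAAANNGAAA), which does not contain the first core, was added after the sequences were seen. Over the 250 bases before the start, these letters occurred on either strand in 6.56%, 6.57%, 0.948%, 32.0%, 7.67% and 3.02% of the 35116 promoter windows that RefSeq gave. HLA-B held the first core as TTTCACTTC from 155 to 147 bases before the start, the enhancer A core from 176 to 169 and TGACGC from 106 to 101. HLA-C held TTTCACTTC from 151 to 143 bases and TGACGC from 105 to 100 bases before the start, so both classical genes carried this pair of motifs in the same order.

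The first core was found in 2 of the 5 members with windows, HLA-B and HLA-C, and not in HLA-F, HLA-G or B2M. HLA-F held the longer pattern as TTTCTCTTTC from 156 to 147 bases before the start. B2M held the longer pattern 2 times, as GAAAAGGAAA from 144 to 135 bases and GAAACTGAAA from 138 to 129 bases, and these matches overlap each other. The Y box letters occurred 3 times in HLA-B, 4 times in HLA-C, 2 times in HLA-F and 1 time each in B2M and in the HLA-G window shown. The gamma-activated site was in none of these windows, and the other 2 windows of HLA-G held none of the motifs. The HLA-G window shown had neither the first core nor the longer pattern. These matches describe the letters and were not tested as binding sites. Any link between the letters and the levels of the members was not tested, and HLA-E and NLRC5 had no window.

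**Figure D2:**
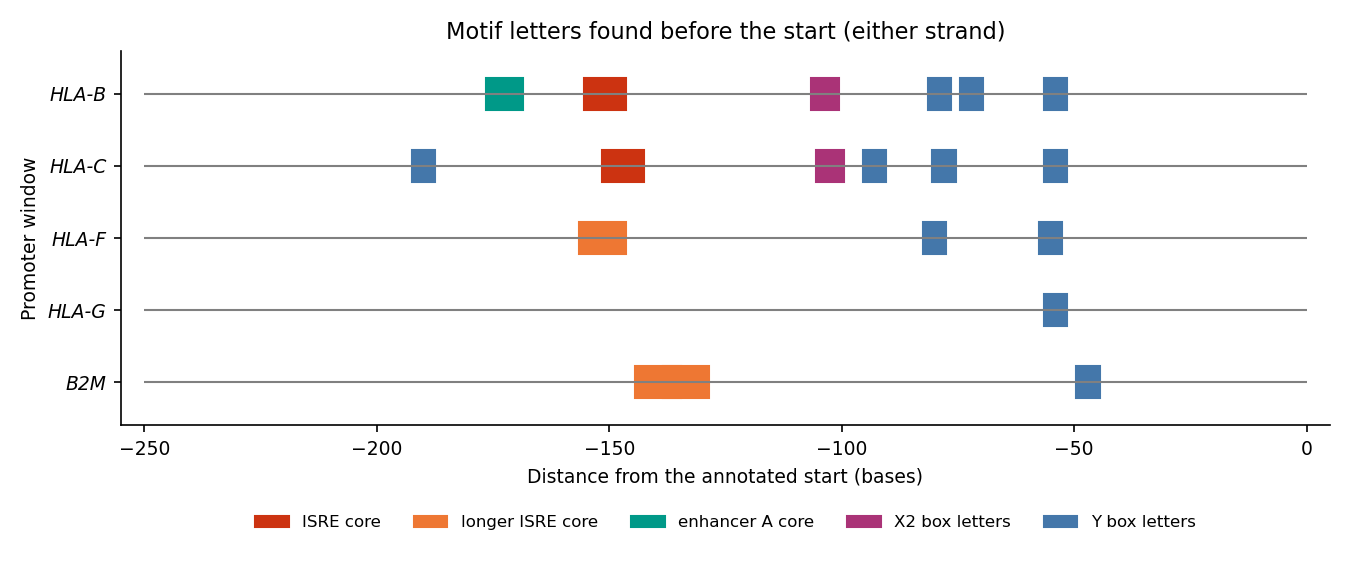
Motif letters found on either strand in the 250 bases before the RefSeq start of 5 members (ISRE, interferon-stimulated response element). The x axis gives the distance from the start in bases. The planned ISRE core (6.56% of all promoters) is in HLA-B and HLA-C only, and the longer pattern, added after the sequences were seen (3.02%), is in HLA-F and B2M, where overlapping matches appear as 1 block.

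The heavy chain genes resemble each other in sequence. Over the 250 bases before the start, HLA-B and HLA-C were identical at 89.0% of the aligned positions and HLA-B and HLA-F at 80.4%, while HLA-B and B2M were identical at 49.5%. In coding sequence the identity was 91.6% between HLA-B and HLA-C, 86.0% between HLA-B and HLA-E and 70.3% between HLA-B and HLA-F. How the authors counted reads with several matches is not given in the sources used here, so the split of reads between heavy chain genes is uncertain. No stretch of 150 bases in the reference transcripts of the 5 genes recurred in another HLA gene of the annotation, while 6.76% of the stretches of 50 bases in HLA-C, 5.28% in HLA-G, 4.76% in HLA-E, 2.56% in HLA-B and 1.68% in HLA-F did.

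HLA-B, a classical gene whose product presents peptides to cytotoxic T cells, rose most among the heavy chain genes. The siALDOA libraries gave 684, 647 and 860 raw counts, the siControl libraries 377, 366 and 472. Scaled, these were 24.6, 21.5 and 30.3 CPM against 12.1, 12.0 and 14.3 CPM. Replicate 3 was the highest library of both groups, and the lowest siALDOA library still lay well above the highest siControl library. The means were 25.5 ± 4.44 CPM (SD, n = 3) and 12.8 ± 1.32 CPM (SD, n = 3). HLA-B rose by 0.99 on the log2 scale (standard error 0.12, 1.99-fold, adjusted p = 8.11e-06 by edgeR's quasi-likelihood test with Benjamini-Hochberg adjustment). The reference places the microRNA gene MIR6891 inside HLA-B on the same strand, and it was listed with 42, 18 and 39 counts against 43, 3 and 17, so some reads of the region may stand under that symbol.

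HLA-C, the other classical gene, is also the main ligand of killer cell receptors on natural killer cells. It stood at 28.0, 26.5 and 27.5 CPM with siALDOA and at 18.6, 21.3 and 21.6 CPM with siControl. The siALDOA libraries were nearly alike, and siControl replicate 1 was the lowest of all. HLA-C rose by 0.41 (standard error 0.088, 1.33-fold, adjusted p = 0.00408 by the same edgeR test), from 20.5 ± 1.69 to 27.3 ± 0.749 CPM (SD, n = 3 each). This was the smallest rise among the members. Without siControl replicate 1 it was 0.35 with an adjusted p of 0.0242, the highest over the alternatives, in which the adjusted p started at 3.01e-04.

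Among the non-classical genes, HLA-E presents leader peptides of other class I chains to the NKG2A and NKG2C receptors. Its level was 255, 238 and 264 CPM with siALDOA and 189, 183 and 177 CPM with siControl. These groups were far apart relative to their spread, at 252 ± 13.2 and 183 ± 5.99 CPM (SD, n = 3 each). HLA-E rose by 0.47 (standard error 0.058, 1.38-fold, adjusted p = 1.48e-05 by the same edgeR test).

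HLA-F, which reaches the cell surface also without peptide, stood at 16.8, 21.9 and 21.6 CPM with siALDOA and at 11.4, 9.90 and 14.7 CPM with siControl. The lowest siALDOA library, replicate 1, lay only a little above siControl replicate 3, the highest control. From 12.0 ± 2.43 to 20.1 ± 2.88 CPM (SD, n = 3 each), HLA-F rose by 0.75 (standard error 0.13, 1.68-fold, adjusted p = 8.27e-04 by the same edgeR test). An antisense gene, HLA-F-AS1, overlaps it on the opposite strand and was listed with 39, 27 and 44 counts against 23, 24 and 20. Whether the counting used strand is not given in the sources used here, so reads of this pair cannot be told apart. The antisense gene's own log2 fold change was 0.85 (standard error 0.38, adjusted p = 0.176).

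HLA-G, whose product is known from the placenta, was listed at 0 in all 6 libraries, as were 7308 of the 28278 genes (25.8%). Zeros in these files are not read as absence here. CANX, the chaperone calnexin that every cell uses, was listed at 0 as well.

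The light chain gene B2M was the most highly expressed member. Its level was 1002, 931 and 927 CPM with siALDOA and 699.5, 718 and 669 CPM with siControl. Unlike HLA-B and NLRC5, its highest siALDOA library was replicate 1. The groups stood apart by much more than their spread, at 953 ± 42.3 and 696 ± 24.8 CPM (SD, n = 3 each). B2M rose by 0.45 (standard error 0.060, 1.37-fold, adjusted p = 3.16e-05 by the same edgeR test).

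NLRC5, the class I transactivator, showed the largest rise of the members. Raw counts were 560, 817 and 773 under siALDOA, against 281, 344 and 311 under siControl. These correspond to 20.1, 27.2 and 27.2 CPM against 9.01, 11.3 and 9.44 CPM. siALDOA replicate 1 was lower than the other siALDOA libraries, yet well above every control. The means were 24.8 ± 4.09 and 9.91 ± 1.20 CPM (SD, n = 3 each). NLRC5 rose by 1.33 (standard error 0.12, 2.51-fold, adjusted p = 2.18e-07 by the same edgeR test). Among the 668 genes called higher, it ranked 62 by p and 36 by log2 fold change, and HLA-B ranked 88 and 67. HLA-C stood at the other end of the members, at 240 by p and 284 by log2 fold change.

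Levels of the members were compared with each other as CPM per kilobase of exon length, taken from the canonical transcript of each gene. On this scale the siControl means were 738 ± 26.3 for B2M, 71.8 ± 2.35 for HLA-E, 13.3 ± 1.097 for HLA-C, 8.33 ± 0.859 for HLA-B, 8.10 ± 1.64 for HLA-F and 1.46 ± 0.177 for NLRC5 (SD, n = 3). HLA-B and HLA-F were not separated by their spread in siControl. With siALDOA the means were 1011 ± 44.9, 99.1 ± 5.18, 17.7 ± 0.486, 16.6 ± 2.89, 13.6 ± 1.94 and 3.66 ± 0.603 in the same order. HLA-C and HLA-B then overlapped, at 18.1, 17.2 and 17.8 against 16.0, 14.0 and 19.7 CPM per kilobase, as did HLA-B and HLA-F. The order of the means was thus the same in both groups.

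Because reads may be split between similar genes, the counts of the 5 listed heavy chain genes were also summed and the sum tested in their place. The sum was 324, 308 and 344 CPM with siALDOA and 231, 226 and 227 CPM with siControl. It was higher in every siALDOA library, and the controls differed little from each other, at 228 ± 2.38 CPM against 325 ± 17.9 CPM (SD, n = 3 each). The sum rose by 0.51 (standard error 0.057, 1.43-fold, adjusted p = 2.80e-06 by edgeR's quasi-likelihood test with Benjamini-Hochberg adjustment over 15304 genes). HLA-E supplied most of it, so a sum without HLA-E was added after the data were seen. That sum rose by 0.69 (standard error 0.078, 1.61-fold, adjusted p = 4.12e-06), from 42.1, 43.2 and 50.6 CPM to 69.4, 70.0 and 79.4 CPM.

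Within the summed counts, the share of HLA-B was 7.58%, 6.98% and 8.80% with siALDOA and 5.24%, 5.30% and 6.30% with siControl. All siALDOA libraries had the larger share, by 2.18 percentage points on average, with p = 0.10 in a two-sided exact permutation test, the smallest p that 3 libraries against 3 can give. HLA-E took 78.6%, 77.3% and 76.9% against 81.8%, 80.9% and 77.7%, and siControl replicate 3 lay within the siALDOA range (difference -2.54 points, exact permutation p = 0.20). The shares of HLA-C (difference -0.58 points) and HLA-F (0.94 points) overlapped between the groups, each with an exact permutation p of 0.30. The HLA-C difference was -1.06 points without siControl replicate 1 and -0.32 points without siControl replicate 3. That of HLA-F was 0.49 points without siALDOA replicate 2 and 1.54 points without siControl replicate 3. None of these 4 shares could reach the threshold of 0.05 in this design.

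The heavy chain sum was then set against B2M counts of the same library, a ratio that needs no scaling. It was 0.323, 0.331 and 0.371 with siALDOA and 0.330, 0.315 and 0.340 with siControl. These ranges overlapped, and the mean log2 ratio differed by 0.056 (two-sided exact permutation p = 0.60). The difference was carried by 1 library, and was -0.0045 without siALDOA replicate 3. The rises of the heavy chain sum and of the light chain were 0.51 and 0.45 on the log2 scale. The smallest p of this permutation test is 0.10 with 3 libraries a group, so it could not have shown a difference between these rises at 0.05.

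Ratios of single members to B2M were added after the data were seen and are given without a test. Per 1000 B2M counts, NLRC5 gave 20.1, 29.2 and 29.4 under siALDOA, against 12.9, 15.7 and 14.1 under siControl. HLA-B had 24.5, 23.1 and 32.7 against 17.3, 16.7 and 21.4. For both genes the siALDOA libraries lay above all controls. HLA-F, at 16.8 to 23.5 against 13.8 to 21.9, overlapped between groups, as did HLA-C and HLA-E, whose mean log2 ratios differed by -0.037 and 0.010 and changed sign when single libraries were left out.

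**Figure D3:**
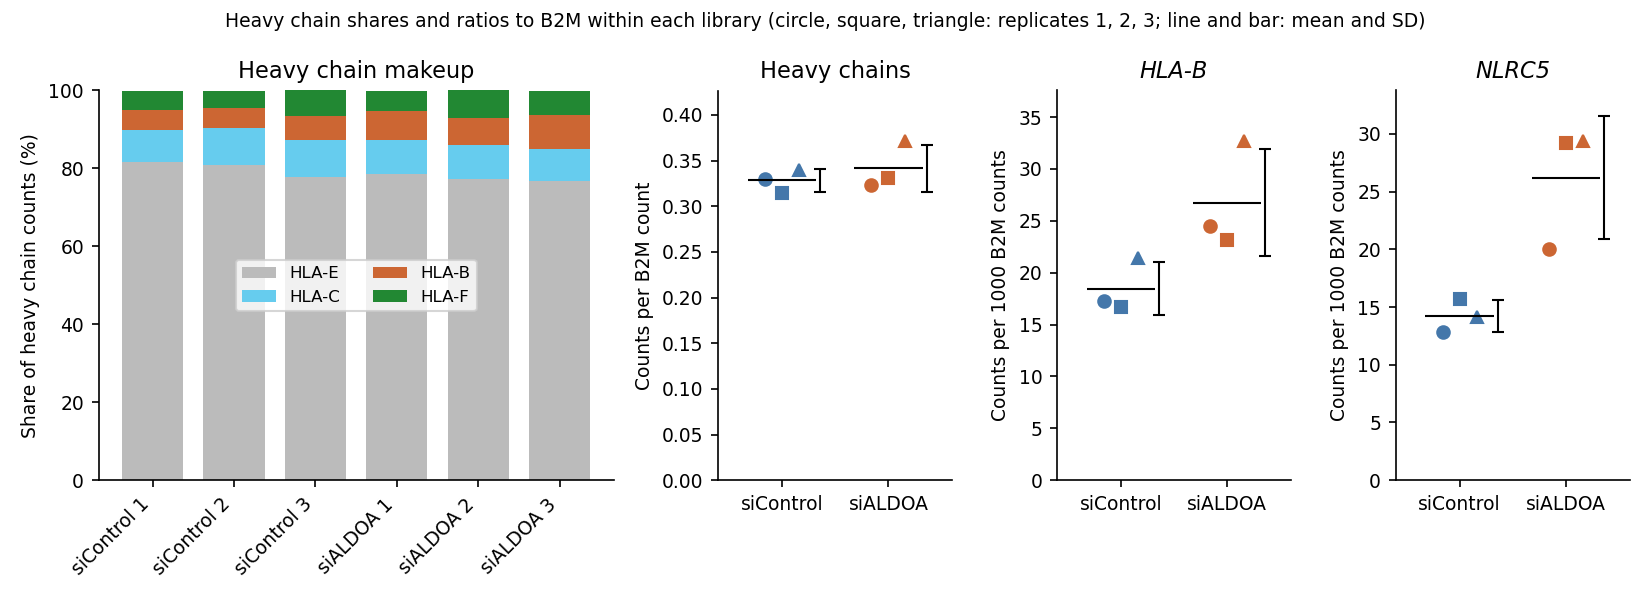
Shares of the heavy chain counts in percent for each library, the ratio of heavy chain counts to B2M counts, and HLA-B and NLRC5 counts per 1000 B2M counts; lines and bars give mean and SD (n = 3). HLA-E fills 76.9% to 81.8% of each bar, the heavy chain ratio overlaps between groups, and the HLA-B and NLRC5 ratios do not.

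The libraries did not rank the members alike. Measured as log2 CPM above the siControl mean, NLRC5 stood at 1.02, 1.46 and 1.46 in siALDOA replicates 1 to 3 and HLA-F at 0.50, 0.89 and 0.87, both lowest in replicate 1. HLA-B stood at 0.94, 0.75 and 1.24, lowest in replicate 2. HLA-E, at 0.48, 0.38 and 0.53, had the same order of libraries as HLA-B, and B2M, at 0.53, 0.42 and 0.41, was highest in replicate 1. Within siControl, HLA-F varied most, from -0.26 to 0.31, and HLA-E least, from -0.048 to 0.046.

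Genes that prepare and load peptides for class I molecules were followed as a list of 9, of which 8 were tested. This list and the others below were also chosen with earlier results of these data known. Of these, 6 were called higher and 0 lower, with a median log2 fold change of 0.26, against 668 higher, 810 lower and a median of 0.0016 over the 15307 tested genes. TAP1 and TAP2 form the transporter that brings peptides into the endoplasmic reticulum. TAP1 stood at 101, 122 and 126 CPM with siALDOA and at 49.7, 47.7 and 43.8 CPM with siControl, and rose by 1.31 (standard error 0.079, adjusted p = 4.36e-10 by edgeR's quasi-likelihood test). TAP2 rose by 0.62 (adjusted p = 1.14e-06 by edgeR). Both genes were higher in every siALDOA library than in any control.

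Of the chaperones of the loading complex, PDIA3 rose by 0.33 (adjusted p = 0.00111 by edgeR), TAPBP, which encodes tapasin, by 0.29 (adjusted p = 0.0115) and CALR, calreticulin, by 0.24 (adjusted p = 0.00647). The trimming peptidase ERAP1 had a log2 fold change of 0.18 (adjusted p = 0.162) and the tapasin relative TAPBPL 0.18 (adjusted p = 0.623). The call of CALR did not hold without siControl replicate 3 (adjusted p = 0.0524). That of TAPBP did not hold without siALDOA replicate 2 or 3 (0.0539 and 0.0902) or siControl replicate 2 or 3 (0.0824 and 0.0523), and without siControl replicate 3 the list had 3 genes called higher. The sixth called gene, the peptidase ERAP2, is named after its values were seen: it rose by 0.20 (adjusted p = 0.0360). Its call did not hold without siALDOA replicate 2 or 3 (0.134 and 0.0960) or siControl replicate 1, 2 or 3 (0.132, 0.0539 and 0.137). TAPBPL turned to -0.065 without siALDOA replicate 2.

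In the list of the immunoproteasome, the form of the proteasome that favours peptides for class I, 4 of 6 genes were tested, and 2 were called higher and 0 lower (median log2 fold change 0.48). PSMB9 had 21.6, 23.2 and 26.5 CPM with siALDOA and 8.82, 9.70 and 7.80 CPM with siControl. This catalytic subunit rose by 1.44 (standard error 0.11, adjusted p = 1.71e-08 by edgeR). PSMB8 rose by 0.75 (adjusted p = 7.73e-06 by edgeR). The other catalytic subunit, PSMB10, had a log2 fold change of 0.22 (adjusted p = 0.121 by edgeR) and was called higher without siControl replicate 3 (adjusted p = 0.0289 and log2 fold change 0.33). The assembly factor POMP was at -0.046 (adjusted p = 0.706), and at 0.026 with scaling by library totals. The proteasome activator genes PSME1 and PSME2 were listed at 0 in every library.

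Some factors known to act at class I promoters were looked at as single genes. STAT2 had 72.9, 86.4 and 84.3 CPM with siALDOA against 46.1, 47.3 and 48.5 CPM, and every siALDOA library lay above every control. STAT2 rose by 0.78 (adjusted p = 1.63e-07 by edgeR's quasi-likelihood test), IRF1 by 0.39 (adjusted p = 0.00196) and IRF9 by 0.27 (adjusted p = 0.0253). IRF9 was called only while siALDOA replicates 2 and 3 and all siControl libraries were kept: without these 5 in turn the adjusted p was 0.161, 0.0758, 0.0919, 0.0518 and 0.0872.

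Other such factors bind the promoter boxes or are NF-kappaB subunits. RFX5, part of the complex at the X1 box, had a log2 fold change of 0.21 (adjusted p = 0.0813 by edgeR) and was called higher without siALDOA replicate 2 (0.27, adjusted p = 0.0409) and with scaling by library totals (0.28, adjusted p = 0.0435). The NF-kappaB subunit RELA was at -0.11 (adjusted p = 0.443), and at 6.83e-05 without siALDOA replicate 1.

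The NLR family, to which NLRC5 belongs, was a list of 10 without NLRC5 itself, with 8 tested. edgeR called 0 of them, DESeq2 0, limma-voom 0 and edgeR's likelihood ratio test 0, while 1 had an unadjusted p under 0.05, and the median log2 fold change was 0.011. NOD1, a sensor of bacterial peptidoglycan, was at 0.27 (adjusted p = 0.164 by edgeR), and the mitochondrial NLRX1 at 0.022 (adjusted p = 0.928). NLRX1 turned to -0.065 without siALDOA replicate 2 and to -0.075 without siControl replicate 1. CIITA, the counterpart of NLRC5 at class II promoters, is named in addition, after its values were seen. It stood at 13.2, 11.5 and 10.3 CPM with siALDOA and at 11.8, 12.0 and 12.7 CPM with siControl, and its log2 fold change was -0.062 (adjusted p = 0.803 by edgeR). This value was 0.019 without siALDOA replicate 3 and 0.0075 with scaling by library totals, so its direction was not settled.

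**Figure D4:**
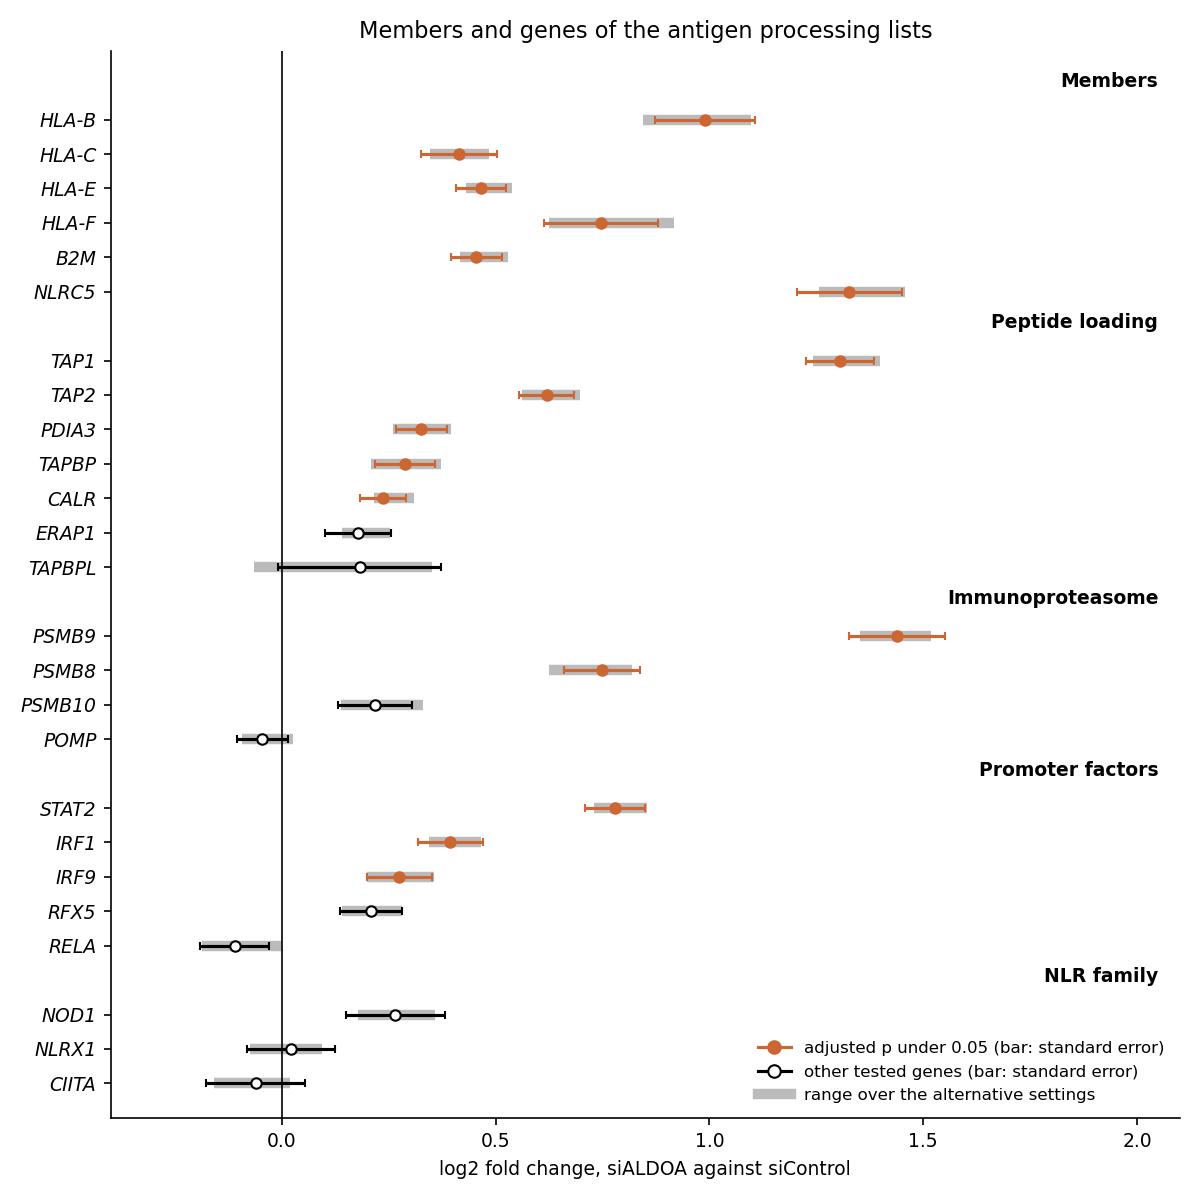
Log2 fold change, siALDOA against siControl, of the tested members and of named genes of the peptide loading, immunoproteasome, promoter factor and NLR family lists; thin bars give the standard error, filled points passed the adjusted p threshold and grey bands show the range over the alternative settings. NLRC5 (1.33), TAP1 (1.31) and PSMB9 (1.44) lie farthest to the right, while NLRX1, CIITA, RELA, POMP and TAPBPL have bands that reach both sides of 0.

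Class II genes, which present peptides from outside the cell, were mostly without counts: 7 of 12 were listed at 0 in every library, 4 were tested, 0 were called higher and 1 lower (median 0.085). HLA-DMB, a class II peptide exchange factor encoded in the same region, was at 3.27, 4.66 and 3.73 CPM with siALDOA and at 7.50, 5.37 and 6.95 CPM with siControl. It fell by 0.76 on the log2 scale (standard error 0.18, adjusted p = 0.00917 by edgeR). Its partner HLA-DMA was at -0.10 (adjusted p = 0.789), and at 0.071 without siControl replicate 2. CD74, the invariant chain, was at 0.27 (adjusted p = 0.215), and at 0.14 without siControl replicate 2 and 0.36 without siControl replicate 1.

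Class I-like genes share the fold of the heavy chain. Of 14, 13 were tested, with 1 called higher and 2 lower and a median of -0.0086. ULBP1, ULBP3 and MICA encode ligands of the killer cell receptor NKG2D. ULBP1 had 14.1, 13.4 and 11.1 CPM with siALDOA against 18.7, 18.8 and 18.5 CPM, and fell by 0.54 (adjusted p = 0.00213 by edgeR). ULBP3 fell by 0.52 (adjusted p = 0.0197 by edgeR), a call lost without siALDOA replicate 1 or 2 (0.0618 and 0.0863), without siControl replicate 3 (0.106) and with scaling by library totals (0.0635). MICA, at 38, 40 and 51 counts against 40, 24 and 37, had a log2 fold change of 0.49 (adjusted p = 0.407 by edgeR). This value was 0.31 without siControl replicate 2 and 0.64 without siControl replicate 1.

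HFE, which regulates iron uptake and pairs with B2M, rose by 0.32 (adjusted p = 0.0243 by edgeR). Its call was lost without siALDOA replicate 2 or 3 (0.0925 and 0.0654) or siControl replicate 3 (0.163). FCGRT, the neonatal Fc receptor, which also pairs with B2M, had a log2 fold change of -0.0086 (adjusted p = 0.952), and 0.021, 0.022 and 0.064 without siALDOA replicate 1, without siControl replicate 3 and with scaling by library totals. PROCR was at -0.21 (adjusted p = 0.0773 by edgeR) and was called lower without siControl replicate 1 (-0.26, adjusted p = 0.0418).

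Pseudogenes of class I genes can draw reads from them. Of 7 listed, 4 were in the files and 3 tested, with 1 called higher and 0 lower. For HLA-H the siALDOA libraries gave 26, 20 and 43 counts, the siControl libraries 15, 8 and 11. This is a rise of 1.52 on the log2 scale (standard error 0.46, adjusted p = 0.0409 by edgeR). At this depth its call rested on the set of libraries. The adjusted p was 0.0658 and 0.227 without siALDOA replicate 1 or 3, and 0.0527, 0.175 and 0.146 without siControl replicate 1, 2 or 3. With limma-voom it was 0.0603, and DESeq2 gave no adjusted p for this gene. HLA-J was at 0.54 (adjusted p = 0.199) and HLA-V at 0.38 (adjusted p = 0.626). HLA-J was at 0.31 without siALDOA replicate 1 and at 0.75 without siControl replicate 1. HLA-V was at 0.12 without siControl replicate 1 and at 0.61 without siControl replicate 2.

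Position was examined through neighbouring genes. In the class I region, 24 of 27 listed neighbours were tested, with 3 called higher and 0 lower and a median of 0.11. The receptor kinase gene DDR1 rose by 0.33 (adjusted p = 0.00357 by edgeR), CCHCR1 by 0.43 (adjusted p = 0.0132) and TCF19 by 0.30 (adjusted p = 0.0122). Without siALDOA replicate 3, siControl replicate 2 or siControl replicate 3, 1 of the 24 was called higher: the adjusted p of CCHCR1 was then 0.0579, 0.0729 and 0.104, and that of TCF19 was 0.0613, 0.0960 and 0.0837. The neighbours TUBB and BAG6 had log2 fold changes of 0.11 (adjusted p = 0.376) and -0.037 (adjusted p = 0.793). TUBB was at 0.025 without siALDOA replicate 3 and at 0.19 without siALDOA replicate 1. BAG6 was at 0.026 without siALDOA replicate 1, 0.014 without siControl replicate 1 and 0.040 with scaling by library totals.

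The nearest tested genes on each side of the 5 heavy chain loci were 14 different genes without an HLA symbol. Among them were MIR6891, which lies inside HLA-B, and RPP21 and TRIM39-RPP21, whose spans overlap. Of the 14, edgeR called 1 higher and 0 lower. The likelihood ratio test called 3 of the 14, and 4 had an unadjusted p under 0.05. The called gene, ZNF311, had a log2 fold change of 0.80 (adjusted p = 0.0156) and lies 717459 bases from HLA-F. Its call was lost without siALDOA replicate 1 or 2 (0.0711 and 0.0764) or siControl replicate 2 or 3 (0.0568 and 0.0789). GABBR1, 88799 bases from HLA-F, had 48, 32 and 45 counts against 21, 25 and 15 and a log2 fold change of 1.16 (adjusted p = 0.0604). It was called higher by the likelihood ratio test (0.0133), with scaling by library totals (0.0457) and with the filters of 1 count in all (0.0355) and of 10 counts per library (0.0282). HCP5, 96103 bases from HLA-B, was at 0.62 (adjusted p = 0.0870). It was called higher by the likelihood ratio test (0.0460), with scaling by library totals (0.0341), with the filter of 1 count in all (0.0140) and without siControl replicate 1 (0.96, adjusted p = 0.00786). RPP21, 142625 bases from HLA-E, lay the other way at -0.36 (unadjusted p = 0.0209, adjusted p = 0.124), with every siALDOA library below every control.

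Around NLRC5, 11 neighbours were tested and edgeR called 0, as did DESeq2, limma-voom and the likelihood ratio test, with 2 at an unadjusted p under 0.05 and a median of 0.079. HERPUD1 and CPNE2, which lie 44621 and 9052 bases from it, were at -0.15 (adjusted p = 0.203) and 0.16 (adjusted p = 0.228). NUP93 and PSME3IP1 followed at 0.11 and 0.052 (adjusted p = 0.445 and 0.709). POLR2C was at 0.19 (adjusted p = 0.0889) and was called higher with scaling by library totals and without siALDOA replicate 1, and DOK4 was at 0.094 (adjusted p = 0.348). HERPUD1 was at -0.081 without siControl replicate 3 and DOK4 at 0.057 without siALDOA replicate 2. NUP93 was at 0.038 without siALDOA replicate 1 and at 0.15 without siALDOA replicate 2. PSME3IP1 was at 0.011 without siControl replicate 1 and at 0.10 without siControl replicate 2. None of these values came near the 1.33 of NLRC5.

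Around B2M, 5 neighbours were tested, with 0 called higher and 1 lower. EIF3J was at -0.19 (adjusted p = 0.0343 by edgeR), which was lost with scaling by library totals (-0.12, adjusted p = 0.420) and without any library but siALDOA replicate 1, with adjusted p from 0.0513 to 0.150. The annotated span of PATL2 ends 35 bases before the GENCODE start of B2M. PATL2 had 7, 14 and 14 counts against 13, 13 and 11 and a log2 fold change of 0.047 (adjusted p = 0.968). SPG11 and SORD were at 0.027 and -0.011 (adjusted p = 0.834 and 0.931), and SORD2P at 0.089 (adjusted p = 0.522). The values of PATL2, SPG11 and SORD changed sign when single libraries were left out. SORD2P was at 0.024 without siALDOA replicate 1 and at 0.13 without siControl replicate 2.

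Markers were checked for the cell type the labels give and for others. Of 11 genes of colon epithelium, 10 were tested, with 1 called higher and 1 lower and a median of -0.12. Their summed level was 9479, 9653 and 9811 CPM with siALDOA and 10045, 10320.3 and 10606 CPM with siControl. EPCAM and CDH1, which define epithelium, were at 325 to 415 CPM and 496 to 536 CPM over the 6 libraries. KRT19 rose by 0.38 (adjusted p = 5.77e-04 by edgeR). KRT18 fell by 0.28 (adjusted p = 0.0152 by edgeR), a call lost with scaling by library totals (adjusted p = 0.242) and without siALDOA replicate 2 or 3 (0.0750 and 0.0704) or siControl replicate 2 or 3 (0.0702 and 0.0512). With limma-voom 3 genes of this list were called lower, among them KRT8 (-0.14, adjusted p = 0.0468; 0.357 by edgeR). LGALS4 was listed at 0.

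Leukocytes express class I genes at high levels, so their markers are given beside the members. Of 16, 5 were tested, with 1 called higher and 0 lower and a median of 0.11. Their summed level was 1464, 1398 and 1383 CPM with siALDOA and 1326, 1326 and 1278 CPM with siControl, nearly all of it from LYZ, at 1429, 1362 and 1348 against 1299, 1294 and 1246 CPM (log2 fold change 0.11, adjusted p = 0.330 by edgeR). The defining markers PTPRC, CD53, TYROBP, CD3E and MS4A1 had at most 2 counts in any library. CD14 rose by 0.32 (adjusted p = 0.0485 by edgeR), a call held in 1 of 6 fits that left out a library and lost without siALDOA replicate 2 or 3 (0.117 and 0.135) or any siControl library (0.153, 0.0629 and 0.137). With limma-voom its adjusted p was 0.0525.

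Of 9 markers of fibroblasts and endothelium, 3 were tested, with 0 called higher and 1 lower and a median of -0.26. Their summed level was 4.89, 4.33 and 4.82 CPM with siALDOA and 6.29, 4.49 and 5.80 CPM with siControl. VIM had at most 2 counts in any library and COL1A2 was listed at 0. PECAM1, at 18, 36 and 12 counts against 59, 42 and 69, fell by 1.23 (adjusted p = 0.0429 by edgeR). Of the 6 fits that left out a library, 1 called it, that without siALDOA replicate 2, and in the other 5 the adjusted p ran from 0.0595 to 0.178. With scaling by library totals it was 0.0523.

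The genes whose pattern over the 6 libraries was nearest to that of NLRC5 were TRANK1, IFITM3, MX1, XAF1 and OAS3. The measure was the root mean square difference in log2 CPM above the siControl mean, over 13718 candidate genes with at least 1 CPM on average, and it was 0.094, 0.095, 0.099, 0.10 and 0.10 for these 5. TRANK1 stood at 38.3, 46.5 and 44.03 CPM with siALDOA and at 16.3, 17.8 and 17.0 CPM with siControl. Nearest to the mean of the 6 tested members were IFIT5, DTX3L, SALL4, ZCCHC2 and STAT2, at 0.025, 0.034, 0.047, 0.051 and 0.067. IFIT5 stood at 96.7, 102 and 110.4 CPM with siALDOA and at 60.4, 60.0 and 63.2 CPM with siControl.

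**Figure D5:**
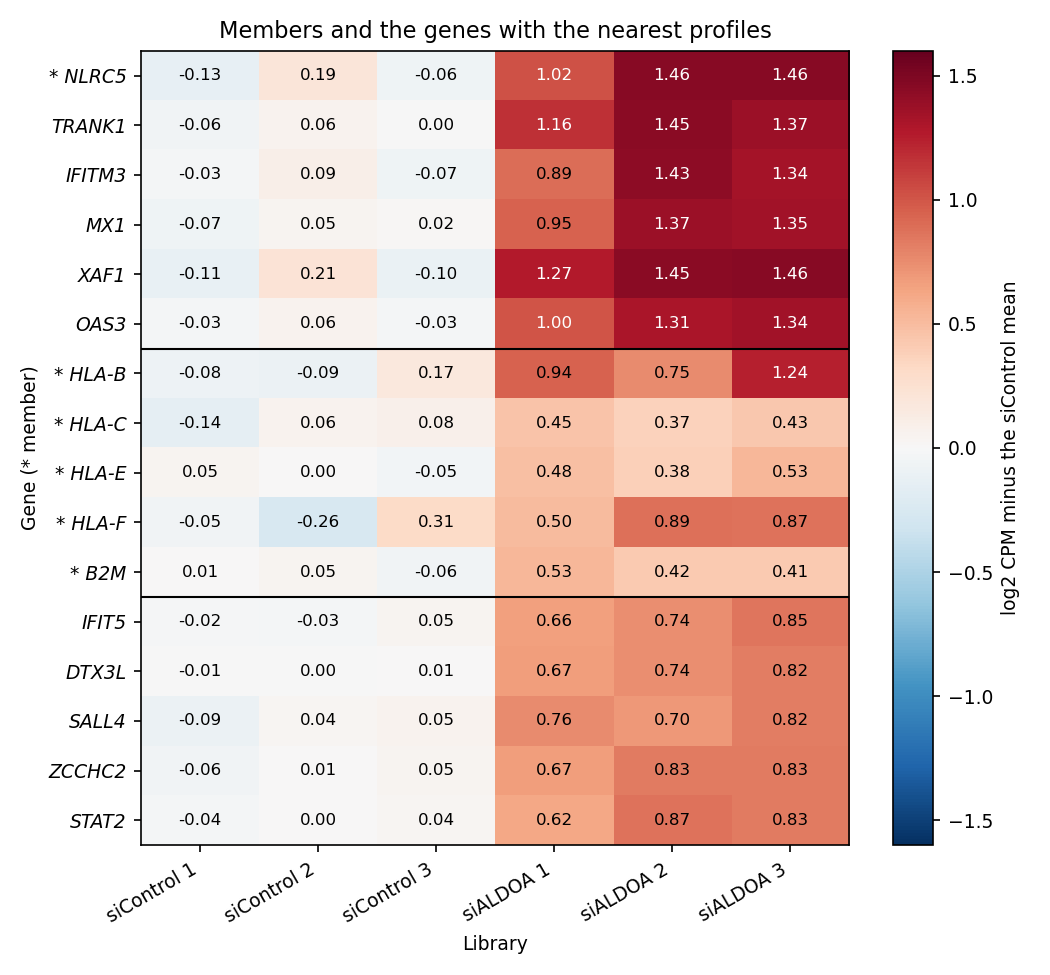
Log2 CPM minus the siControl mean in each library for NLRC5 and its 5 nearest genes, for the other tested members, and for the 5 genes nearest to the mean of the tested members; members carry an asterisk. NLRC5 is at 1.02 in siALDOA replicate 1 against 1.46 in both others, and its nearest genes were selected for likeness to it over these same libraries.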

How the data were processed

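RNA-Seq of 6 HT29 libraries was analysed, 3 with siALDOA and 3 with siControl, grouped by their labels. The authors aligned reads to hg38 with TopHat2, counted them with gfold and deposited whole-number counts per gene symbol, without normalization; their annotation, their strand setting and their treatment of multi-mapped reads are not given in the sources used here. The members and lists were chosen with earlier results of these data known.

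Differences were tested in R 4.3.3 with edgeR 4.0.16 (filterByExpr, TMM, quasi-likelihood F-test, no covariate, Benjamini-Hochberg over all tested genes, threshold 0.05). Each standard error was the absolute log2 fold change over the root of its F statistic. CPM used TMM-scaled totals, and log2 CPM a prior count of 2. Shares and ratios were compared by two-sided exact permutation tests (python 3.11.15, numpy 2.4.6, scipy 1.17.1). The test was tried on simulated counts with known changes. Totals ranged from 27277538 to 33237914 counts per library; the lowest count of a tested member was 281.

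Gene positions, exon lengths and transcripts came from GENCODE release 44 and promoters from RefSeq. Identity was taken from global alignments in Biopython 1.88 (match 1, mismatch -1, gap opening -2, gap extension -0.5). Figures were drawn with matplotlib 3.10.9.

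Named genes were the members, ALDOA, up to 5 called genes by p and up to 2 others by CPM from each of 13 lists, 2 nearest genes per side, cell type markers and the 5 nearest profiles; not every gene this rule took is reported. Alternatives were limma-voom 3.58.1, DESeq2 1.42.0, edgeR's likelihood ratio test, library totals only, DESeq2 size factors, upper quartile, TMM without ribosomal RNA genes, filters of 1 count in all or of 10 counts per library, a block for replicate number, and fits that each dropped 1 library.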

Additional observations from a re-analysis of the deposited data

How the results depend on the processing

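All 6 tested members stayed higher with siALDOA at an adjusted p under 0.05 in each of 16 alternative fits, 6 of which left out 1 library. The log2 fold change ranged from 0.85 to 1.097 for HLA-B, from 0.35 to 0.48 for HLA-C, from 0.43 to 0.54 for HLA-E, from 0.62 to 0.92 for HLA-F, from 0.42 to 0.53 for B2M and from 1.26 to 1.46 for NLRC5. The heavy chain sum was also called in all of its fits.

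The count of all genes called, 1478, lay between 834 (without siControl replicate 3) and 1434 (without siALDOA replicate 1) when a library was left out, and was 849 without siControl replicate 2. Of the genes in the lists, 25 were called, and 13 to 23 when a library was left out; 15 without siALDOA replicate 3 or siControl replicate 2. Fewer libraries enter these fits.

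The log2 ratio of heavy chains to B2M ranged from -0.0045 to 0.095 over the fits without 1 library, that of HLA-C to B2M from -0.11 to 0.031 and that of HLA-E to B2M from -0.044 to 0.040. Over the same fits, genes that had not passed the test changed sign: TAPBPL (-0.065 to 0.35), RELA (-0.19 to 6.83e-05), NLRX1 (-0.075 to 0.086), CIITA (-0.16 to 0.019), FCGRT (-0.044 to 0.022), HLA-DMA (-0.28 to 0.071), BAG6 (-0.11 to 0.026), PATL2 (-0.12 to 0.29), SPG11 (-0.0083 to 0.053) and SORD (-0.029 to 0.013). Scaling by library totals turned POMP (0.026), CIITA (0.0075), FCGRT (0.064), BAG6 (0.040) and SORD (0.060). The cause was not tested.

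The replicate numbers were not treated as pairs: the deviations of libraries with the same number correlated at 0.035, 0.027 and 0.026 over genes, although every library correlated best with its own number. With a replicate block, 2162 genes were called (987 higher, 1175 lower), 31 in the lists, and the same 6 members. In that paired fit PSMB10, RFX5, PROCR, POLR2C and HCP5 were also called.

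With 3 libraries a group and 1 cell line, p-values measure the spread between these cultures. Genes with few counts, such as HLA-H and PECAM1, are limited by depth.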
